A study of Homo sapiens with 6 samples.

Results

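The genes described here are the EGF receptor family, EGFR, ERBB2, ERBB3 and ERBB4, their ligand genes AREG, EREG, HBEGF, TGFA and BTC, and MET, the receptor of hepatocyte growth factor. They were chosen by symbol, and all 10 were found among 24462 distinct gene symbols. RNA was sequenced in 6 libraries in 3 groups of 2, all labelled MDA-MB-231, a line of triple-negative breast cancer, with replicate numbers 1 and 2. The control group is labelled as control in genotype and transfection, and the labels' protocol describes the control line as infected with a virus from a control plasmid. The other groups are labelled as an ELK3 knockdown of the same line, collected 48 hours after transfection by Lipofectamine 2000 with 1 µg of plasmid. The labels give pLenti-cMyc-DDK for 1 of these groups (vector-labelled) and pLenti-cMyc-DDK-ELK3 for the other (ELK3-labelled). The controls have no recorded plasmid transfection, so the labelled knockdown and the transfection cannot be told apart in contrasts with them. How many clones the lines hold, and whether replicates were separate cultures, is not stated, so p-values measure the spread between these libraries, which may be technical.

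EGFR and its relatives are cell-surface tyrosine kinases that pair up when a ligand binds and then signal through the RAS-MAPK and PI3K pathways. Their ligands are made as membrane-anchored precursors and are released by ADAM proteases. EGFR is often abundant in triple-negative breast cancer, which by definition lacks amplified ERBB2. MET is a separate receptor kinase that drives migration and invasion and shares many adaptors with EGFR.

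ELK3, an ETS-family transcription factor and the gene targeted, went against the labels. In counts per 1000000, scaled by TMM (CPM), the control pair held 129 and 124, the vector-labelled pair 759 and 697 and the ELK3-labelled pair 20.4 and 22.6. The column headers of the deposited files read KD+E for the vector-labelled and KD for the ELK3-labelled libraries. Directions below follow the labels, and the group names do not describe the ELK3 level. Library totals were 4884483 to 9131214 counts, at which 3 counts, the upper limit that a count of 0 allows, equal 0.329 to 0.614 counts per 1000000 before scaling. Of 14 markers of MDA-MB-231 cells, 14 fell in the vector-labelled libraries and 12 fell and 2 rose in the ELK3-labelled libraries, against the controls. Their summed level was 5409 to 5625 CPM in the control pair, 853 to 882 in the vector-labelled and 916 to 960 in the ELK3-labelled libraries, and none was at 0. Of 12 markers of the embryonic kidney line HEK293, 9 could be tested, and 6 rose and 2 fell in the vector-labelled and 7 rose and 1 fell in the ELK3-labelled libraries. Their sum went from 153 to 162 CPM to 234 to 235 and 503 to 506. LIN28B was at 3.56 to 5.81 in the controls and 51.7 to 65.0 in the other libraries. NEFL went from 10.9 and 13.8 CPM to 73.9 and 75.4 (vector-labelled) and to 223 and 220 (ELK3-labelled). PAX8 went the other way, from 17.8 and 18.7 CPM to 0.88 and 0 (vector-labelled) and to 0.16 and 0.53 (ELK3-labelled). PAX2 and STMN2 were at 0 in the controls and CRABP1 at 0 in every library. Of all genes tested, 35.3% fell and 37.0% rose in the vector-labelled libraries, and 30.8% and 31.8% did in the ELK3-labelled libraries. Among the MDA-MB-231 markers, VIM stood at 1922 to 2081 CPM in the controls and 364 to 464 in the other libraries, and AXL at 587 to 624 and 10.5 to 14.8. CD44 stood at 282 in both controls and at 27.2 to 42.6 elsewhere. The 2 that rose in the ELK3-labelled libraries were the keratin genes KRT18 (142 and 154 CPM in the controls, 245 and 242 there) and KRT19 (47.0 and 41.3, 58.0 and 62.9), which are also on the list of luminal markers below. These markers moved between the same libraries as the genes below, and their part in those results was not tested.

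Both groups labelled as knockdown had less EGFR, MET, HBEGF, AREG, EREG and TGFA than the controls, a smaller loss of ERBB2, and more ERBB4. BTC was higher in the vector-labelled libraries alone. An adjusted p under 0.05 in edgeR's quasi-likelihood test, adjusted by Benjamini-Hochberg over 15386 genes, was taken as a call. Against the controls, 9 of the 10 genes were called in the vector-labelled libraries, where 72.3% of all genes tested were. Of them 7 fell and 2 rose, where 35.3% of all genes were lower and 37.0% higher. In the ELK3-labelled libraries 8 were called, where 62.6% of all genes were, with 7 lower (30.8% of all genes) and 1 higher (31.8%). Between the ELK3-labelled and vector-labelled libraries 4 were called, where 59.6% of all genes were, with 3 lower (29.6%) and 1 higher (30.0%). The median log2 fold changes of the 10 genes were -1.91, -2.04 and -0.11 in these 3 contrasts, and those of all genes tested were 0.05, 0.02 and -0.02. The contrasts with controls share the same control libraries. EGFR, ERBB2, ERBB3, HBEGF and MET reached the filter's level of 1.81 CPM in all 6 libraries. EREG reached it in the controls alone, BTC in the vector-labelled libraries alone and ERBB4 in both plasmid groups alone. These 3 thus entered the test through the groups where they were high. AREG reached that level in the controls and the vector-labelled libraries, but in 0 ELK3-labelled libraries. TGFA reached it, before scaling, in both controls and in 1 library of each plasmid group.

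**Figure D1:**
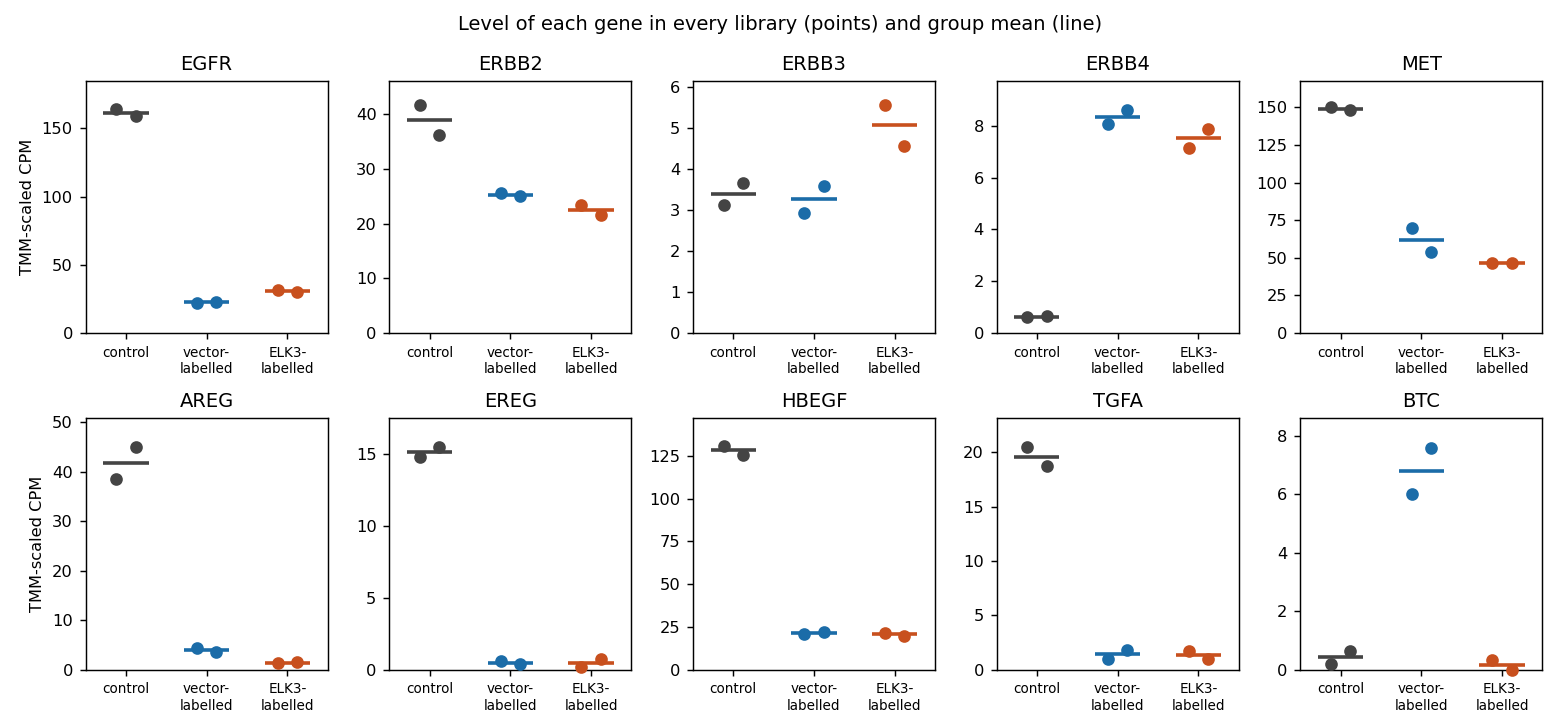
TMM-scaled CPM (vertical axes, from 0, a separate scale for each gene) of the 10 genes in the 2 libraries of each group, as points, with the group mean as a line. EGFR, MET, HBEGF, AREG, EREG and TGFA are highest in the controls, ERBB4 is lowest there, and BTC stands out in the vector-labelled libraries.

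EGFR, the receptor of EGF, amphiregulin and TGF-alpha, held 164 and 159 CPM in the control pair, 22.2 and 23.0 in the vector-labelled pair and 31.33 and 29.98 in the ELK3-labelled pair. The 3 groups did not overlap, with the controls far above both others and the vector-labelled libraries lowest. The drop was 7.15-fold in the vector-labelled libraries (log2 fold change -2.84 ± 0.12 (SE, n = 2 against 2 libraries), edgeR adjusted p = 2.74e-21) and 5.28-fold in the ELK3-labelled libraries (-2.40 ± 0.10, adjusted p = 3.63e-20). The ELK3-labelled libraries had 1.36-fold more EGFR than the vector-labelled ones (0.44 ± 0.13, edgeR adjusted p = 0.00335). Fewer cells making a transcript and less of it in each cell cannot be told apart in these bulk libraries. EGFR spans 55019021 to 55211628 of chromosome 7 (plus strand, GRCh38, GENCODE 29), and its antisense gene EGFR-AS1 had 0 counts in every library.

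ERBB2, the receptor without a known ligand of its own that serves as partner of the others, changed less. It stood at 41.6 and 36.1 CPM in the control pair, 25.56 and 25.01 in the vector-labelled pair and 23.4 and 21.5 in the ELK3-labelled pair. The controls lay above all other libraries, and the plasmid groups lay next to each other without overlap. Its log2 fold changes against the controls were -0.62 ± 0.15 (edgeR adjusted p = 0.000295) and -0.80 ± 0.14 (adjusted p = 1.01e-05), and -0.18 ± 0.15 between the plasmid groups (adjusted p = 0.291). In GENCODE 29 ERBB2 (chromosome 17, 39687914 to 39730426, plus strand) overlaps PGAP3 and MIEN1 on the other strand. MIEN1 had 243 to 494 counts per library, and whether counting used the strand is not stated.

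ERBB3, the neuregulin receptor with a weak kinase, had 15 to 43 counts per library. Its level was 3.14 and 3.66 CPM in the control pair, 2.94 and 3.60 in the vector-labelled pair and 5.57 and 4.57 in the ELK3-labelled pair. The first 2 groups overlapped and the ELK3-labelled libraries lay above both. None of its contrasts was called, with log2 fold changes of -0.07 ± 0.39, 0.56 ± 0.35 and 0.63 ± 0.34 and edgeR adjusted p of 0.879, 0.16 and 0.102. The first of these changed sign with library totals as the only scaling (0.06). ERBB3 spans 56076799 to 56103505 of chromosome 12 (plus strand).

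ERBB4, the other neuregulin receptor, moved against EGFR. Each control library had 3 counts of it, equal to 0.63 and 0.65 CPM, while the vector-labelled libraries had 8.08 and 8.60 CPM (55 and 43 counts) and the ELK3-labelled libraries 7.16 and 7.87 CPM (45 and 74 counts). The plasmid groups were above the controls without overlap and differed little from each other. ERBB4 was 12.7-fold higher in the vector-labelled libraries (log2 fold change 3.67 ± 0.61, edgeR adjusted p = 6.52e-09) and 11.5-fold higher in the ELK3-labelled libraries (3.53 ± 0.61, adjusted p = 1.9e-08). Between the plasmid groups it differed by -0.14 ± 0.24 (adjusted p = 0.646). ERBB4 spans 211375717 to 212538841 of chromosome 2 (minus strand).

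MET had 149.9 and 147.9 CPM in the control pair, 69.8 and 54.0 in the vector-labelled pair and 46.7 and 46.4 in the ELK3-labelled pair. The groups were ordered without overlap, but the vector-labelled libraries lay further apart (SD 11.1, n = 2) than those of the other groups (SD 1.41 and 0.28). MET fell 2.38-fold (log2 fold change -1.25 ± 0.11, edgeR adjusted p = 1.29e-12) and 3.20-fold (-1.68 ± 0.11, adjusted p = 1.45e-15) against the controls. The difference between the plasmid groups, -0.42 ± 0.11 (adjusted p = 0.00149), was no longer called without vector-labelled replicate 1 (-0.21 ± 0.14, adjusted p = 0.213). MET spans 116672390 to 116798386 of chromosome 7, also on the plus strand.

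**Figure D2:**
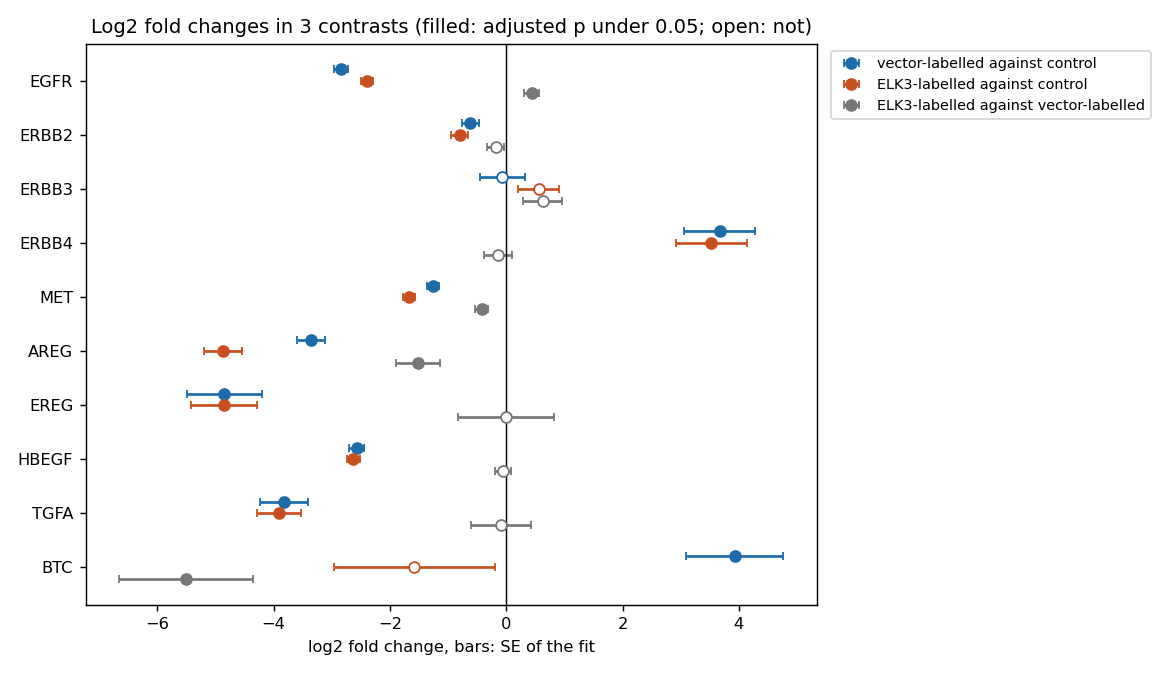
Log2 fold changes (horizontal axis) of the 10 genes in the 3 contrasts, with the SE of the fit as bars and filled points for an adjusted p under 0.05. The contrasts with controls lie far left of 0 for EGFR, AREG, EREG, HBEGF and TGFA, right of 0 for ERBB4, and on opposite sides for BTC, whose ELK3-labelled value is an open point.

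The receptor ratios within a library do not depend on scaling between libraries. For each count of ERBB2 there were 3.94 and 4.40 counts of EGFR in the control pair, 0.868 and 0.92 in the vector-labelled and 1.34 and 1.40 in the ELK3-labelled libraries. The ratio was thus lower in all 4 libraries labelled as knockdown, and its 3 groups did not overlap. The ratio of ERBB4 to ERBB2 counts went the other way, from 0.0151 and 0.0179 in the controls to 0.316 and 0.344 in the vector-labelled and 0.306 and 0.366 in the ELK3-labelled libraries. The ratio of EGFR to MET counts was 1.09 and 1.07 in the control pair, 0.318 and 0.426 in the vector-labelled pair and 0.67 and 0.647 in the ELK3-labelled pair. No test of these ratios was run. Counts were not scaled for transcript length, so only the change of each ratio is described and not the levels of different receptors.

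The ligand genes AREG and EREG, neighbours on chromosome 4, showed large drops. The stretches before their start sites are printed beside that of EGFR and a short stretch of ERBB2, because the ligands and EGFR fell far while ERBB2 changed least among the genes called lower. Sequences are RefSeq's on GRCh38.p14, 5′ to 3′ along each gene's strand, and end at or up to 2 bases before the RefSeq start site. Those of AREG, EREG and EGFR hold no base of a GENCODE 29 exon. That of ERBB2 was taken around its motif matches without this check, and it lies within the GENCODE 29 span of ERBB2. Capitals mark TGACGTCA (the cAMP response element), TATAAA (the TATA box) or, in ERBB2, CCGGAAG on either strand (an ETS motif). The positions are chr4:74444886-74445133 for AREG, chr4:74364895-74365142 for EREG, chr7:55018767-55019016 for EGFR and chr17:39688063-39688092 for ERBB2, all on the plus strand.
AREG: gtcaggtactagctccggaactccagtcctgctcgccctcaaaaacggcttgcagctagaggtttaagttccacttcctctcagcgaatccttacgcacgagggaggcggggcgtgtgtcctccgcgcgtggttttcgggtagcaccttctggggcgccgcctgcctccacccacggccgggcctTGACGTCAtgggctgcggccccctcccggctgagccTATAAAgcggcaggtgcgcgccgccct
EREG: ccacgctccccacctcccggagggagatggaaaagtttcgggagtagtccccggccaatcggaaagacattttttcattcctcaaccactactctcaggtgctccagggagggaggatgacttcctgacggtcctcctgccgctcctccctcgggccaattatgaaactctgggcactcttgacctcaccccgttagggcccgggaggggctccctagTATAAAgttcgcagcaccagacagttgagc
EGFR: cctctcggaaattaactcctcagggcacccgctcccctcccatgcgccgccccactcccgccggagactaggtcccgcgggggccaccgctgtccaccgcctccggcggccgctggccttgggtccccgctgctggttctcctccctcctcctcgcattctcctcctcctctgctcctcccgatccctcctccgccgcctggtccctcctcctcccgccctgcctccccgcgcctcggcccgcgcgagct
ERBB2: ttccaCTTCCGGagtaaCCGGAAGttcctg

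Of the 10 genes, 9 have an entry in the promoter table, and 6 motifs were searched on both strands in the 250 bases before each start. AREG and EREG both hold TATAAA, beginning 29 and 32 bases before the start, as do 10.7% of 35116 promoters. AREG alone among these genes holds TGACGTCA, 65 bases before the start, which 1.65% of promoters hold. ERBB2 alone holds CCGGAAG, as 8.52% of promoters do, in 2 places that lie 26 and 14 bases before the start. The AP-1 motif TGANTCA (6.57% of promoters) occurs in the ERBB2 window and in that of a second EGFR start, which also holds TATAAA. The NF-kappaB motif (0.527% of promoters) and the CArG box bound by SRF (1.16%) occur in none of the 9. Matches of different motifs do not overlap in these windows, and a match of letters is not a binding site.

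AREG encodes amphiregulin, an EGFR ligand of mammary growth. The controls had 38.5 and 44.9 CPM, the vector-labelled libraries 4.41 and 3.60, and the ELK3-labelled libraries 1.27 and 1.49. The groups did not overlap, and the ELK3-labelled libraries were lowest. AREG fell 10.2-fold (log2 fold change -3.35 ± 0.25, edgeR adjusted p = 1.16e-15) and 29.4-fold (-4.88 ± 0.33, adjusted p = 2.42e-18), and was 2.87-fold lower in the ELK3-labelled than in the vector-labelled libraries (-1.52 ± 0.38, adjusted p = 0.000542). The hg19 build named in the submitters' notes carries a second copy of this locus, AREGB, which RefSeq now lists under AREG. How reads shared by the copies were counted is not stated.

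EREG encodes epiregulin, which binds EGFR and ERBB4. Its counts were 71 and 72 in the controls (14.9 and 15.5 CPM), 4 and 2 in the vector-labelled and 1 and 7 in the ELK3-labelled libraries. The plasmid groups overlapped each other and stayed below 1 CPM. EREG fell 28.8-fold in both, with log2 fold changes of -4.85 ± 0.65 (edgeR adjusted p = 6.12e-12) and -4.85 ± 0.57 (adjusted p = 1.68e-12). The second was -6.39 ± 1.46 without ELK3-labelled replicate 2, which held 7 of the 8 counts. EREG spans 74365143 to 74388751 of chromosome 4 (plus strand).

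HBEGF encodes heparin-binding EGF, a ligand of EGFR and ERBB4. It had 131 and 126 CPM in the control pair, 21.15 and 22.01 in the vector-labelled pair and 21.63 and 19.99 in the ELK3-labelled pair. The plasmid groups overlapped, at a level far below the controls. The log2 fold changes were -2.57 ± 0.12 (edgeR adjusted p = 1.3e-19) and -2.63 ± 0.12 (adjusted p = 3.47e-20), or 5.96-fold and 6.20-fold lower, and -0.06 ± 0.14 between the plasmid groups (adjusted p = 0.741). HBEGF spans 140332843 to 140346631 of chromosome 5 (minus strand).

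TGFA encodes TGF-alpha, a ligand of EGFR. It had 20.5 and 18.7 CPM in the controls and 0.96 to 1.80 in the other 4 libraries, whose groups overlapped. It was 14.2-fold (-3.83 ± 0.41, edgeR adjusted p = 2.23e-12) and 15.1-fold lower (-3.91 ± 0.38, adjusted p = 5.52e-13). TGFA spans 70447280 to 70554193 of chromosome 2 (minus strand).

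The make-up of the ligands differed between the groups. For each count of HBEGF there were 0.294 and 0.357 counts of AREG in the control pair, 0.208 and 0.164 in the vector-labelled pair and 0.0588 and 0.0745 in the ELK3-labelled pair, without overlap. The ratio of TGFA to HBEGF was 0.157 and 0.149 in the controls and 0.0479 to 0.0818 in the other 4 libraries. These ratios were not tested.

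BTC encodes betacellulin, a ligand of EGFR and ERBB4, and followed another pattern. It had 1 and 3 counts in the control pair, 41 and 38 in the vector-labelled pair and 2 and 0 in the ELK3-labelled pair, or 0.21 and 0.65, 6.02 and 7.60, and 0.32 and 0 CPM. The vector-labelled libraries stood above all others, while the controls and the ELK3-labelled libraries overlapped near the counting limit. Against the controls BTC rose in the vector-labelled libraries by 3.93 ± 0.84 on the log2 scale (edgeR adjusted p = 4.88e-07), 3.33 without control replicate 1 and 4.87 without control replicate 2. The vector-labelled libraries had 52.5 times the scaled counts of the ELK3-labelled ones (95% exact counting interval 14.1 to 441, edgeR adjusted p = 5.39e-09). The fitted log2 fold change, -5.51, was -4.30 without ELK3-labelled replicate 2 and -8.37 without ELK3-labelled replicate 1, which leaves a lone count of 0. The controls had 3.33 times those of the ELK3-labelled libraries (interval 0.477 to 36.8), which was not called (adjusted p = 0.264). Intervals cover counting error only.

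EREG, AREG and BTC lie in this order on chromosome 4, with AREG at 74445134 to 74455009 and BTC at 74744759 to 74794686 (GRCh38). The protein-coding genes on either side were read from CXCL8 to PARM1. CXCL8 and CXCL1, chemokine genes, fell with EREG and AREG in both groups, with log2 fold changes of -5.97 ± 0.32 and -4.75 ± 0.39 in the vector-labelled libraries (edgeR adjusted p = 3.14e-23 and 1.54e-16). CXCL3, nearer to EREG, changed by -4.33 ± 0.93 in the vector-labelled and -2.70 ± 0.52 in the ELK3-labelled libraries. Its counts were low, with 30 and 22 in the control pair, 1 and 2 in the vector-labelled pair and 6 and 7 in the ELK3-labelled pair. CXCL3 reached the filter's level of 1.81 CPM in the controls alone, so it entered the test through the group where it was high. CXCL2, the nearest chemokine gene, fell less, with -0.96 ± 0.21 and -1.19 ± 0.21. MTHFD2L, which lies between the chemokine genes and the EGF ligand genes, was not called in either (0.04 ± 0.37 and -0.77 ± 0.39, adjusted p = 0.933 and 0.0832), though the second was -1.05 (0.0449) without control replicate 2. EPGN, the ligand gene beside EREG, had 0 to 6 counts per library and was not tested. PARM1, on the other side of BTC, rose in both groups, by 2.51 ± 0.41 and 3.50 ± 0.39 (adjusted p = 8.76e-08 and 4.54e-12). BTC thus rose with PARM1 in the vector-labelled libraries and was near 0 counts in the ELK3-labelled libraries, where PARM1 was higher still.

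**Figure D3:**
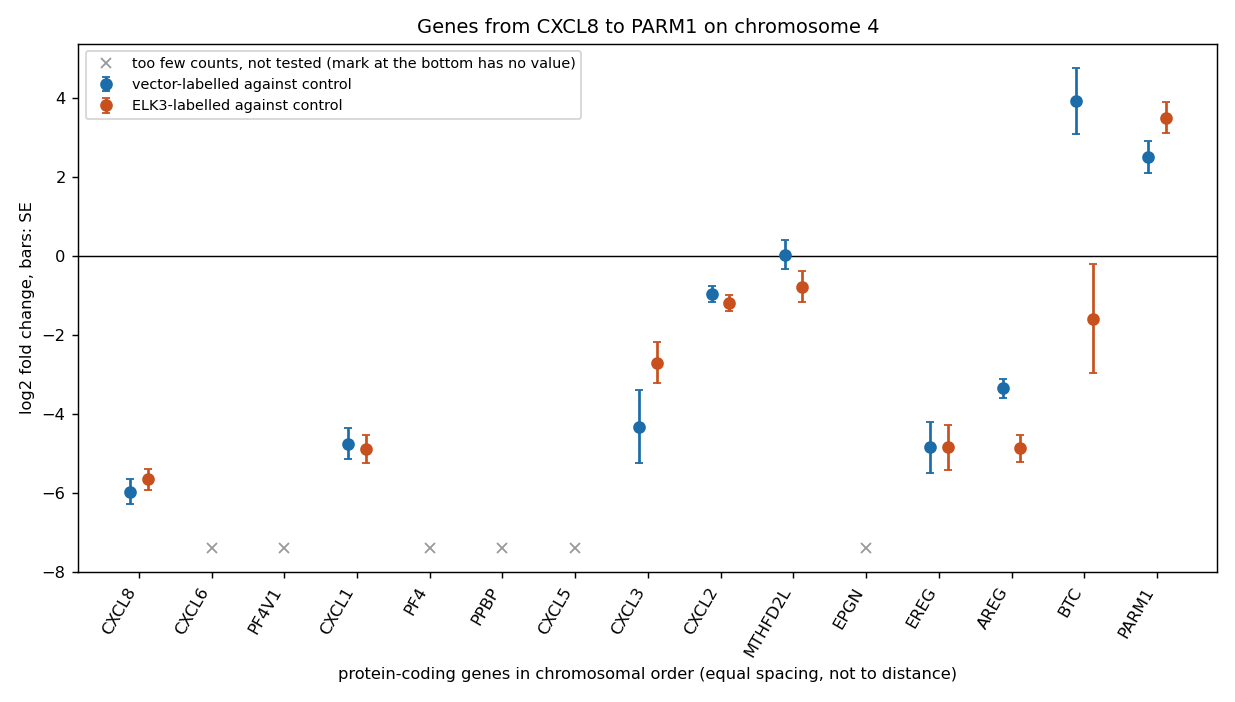
Log2 fold change against controls (vertical axis, SE as bars) of the protein-coding genes from CXCL8 to PARM1 in chromosomal order with equal spacing, and crosses for genes with too few counts to test. EREG and AREG lie far below 0 in both groups, BTC lies above 0 in the vector-labelled libraries alone and PARM1 lies above 0 in both.

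The ligand genes outside the 10 were mixed. Of 6, 4 could be tested, and 2 rose and 1 fell in each plasmid group against the controls (median 1.92 and 1.23). Beside this list and those below, 37.0% of all genes tested were called higher and 35.3% lower in the vector-labelled libraries. In the ELK3-labelled libraries the shares were 31.8% and 30.8%, and between the plasmid groups 30.0% and 29.6%. NRG1, a ligand of ERBB3 and ERBB4, went from 17.6 and 12.9 CPM in the controls to 1.91 and 2.80 in the vector-labelled and 1.11 and 0.85 in the ELK3-labelled libraries, 6.59-fold and 15.6-fold lower (edgeR adjusted p = 2.71e-09 and 7.56e-12). NRG4, a ligand of ERBB4, rose from 2.51 and 1.29 CPM to 14.3 and 14.6 and to 7.79 and 5.74 (7.49-fold and 3.45-fold, adjusted p = 1.29e-09 and 6.56e-05). EGF reached the filter's level of 1.81 CPM in the plasmid groups alone. It had 7 counts in the controls against 73 in the vector-labelled and 44 in the ELK3-labelled libraries (8.17-fold and 3.66-fold higher, adjusted p = 2.31e-06 and 0.00435). The second of these values was not called without control replicate 2 (adjusted p = 0.0725) or ELK3-labelled replicate 2 (0.0862). NRG2 was not called (0.93 ± 0.56 and 0.67 ± 0.55, adjusted p = 0.117 and 0.277), and NRG3 had 0 counts in the controls and the vector-labelled libraries.

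Of 9 genes of ADAM proteases and their iRhom partners, 8 fell and 0 rose in the vector-labelled and 7 fell and 0 rose in the ELK3-labelled libraries (median -1.57 and -1.50). ADAM19 was not called in either (adjusted p = 0.459 and 0.0586), nor RHBDF1 in the ELK3-labelled libraries (0.0554). ADAM17, the main sheddase of AREG, EREG, HBEGF and TGFA, had 73.0 and 68.4 CPM in the control pair, 11.8 and 13.6 in the vector-labelled pair and 24.97 and 25.09 in the ELK3-labelled pair. It fell 5.62-fold and 2.82-fold (edgeR adjusted p = 9.86e-17 and 1.87e-12) and was 1.99-fold higher in the ELK3-labelled than in the vector-labelled libraries (adjusted p = 1.61e-06). ADAM10, the main sheddase of BTC and EGF, fell 4.72-fold and 3.23-fold (adjusted p = 1.03e-17 and 2.44e-15). ADAM8 and ADAM9 had log2 fold changes of -2.57 ± 0.17 and -1.49 ± 0.12 in the vector-labelled libraries.

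Around MET, HGF, its ligand, had 12, 25 and 20 counts over the 2 libraries of each group and was not called in any contrast. Of 8 genes of HGF, the related ligand MST1, its receptor and their activating proteases and inhibitors, 6 could be tested, and 2 fell in the vector-labelled and 4 in the ELK3-labelled libraries. SPINT2, an inhibitor of the proteases that activate HGF, fell from 15.5 and 18.1 CPM to 4.70 and 3.60 and to 3.18 and 1.81 (edgeR adjusted p = 6.34e-08 and 1.82e-10). MST1R, the sister receptor of MET, had 37 counts in the control pair (27 and 10), 5 in the vector-labelled and 1 in the ELK3-labelled libraries. The ratios were 9.26 (95% counting interval 3.63 to 30.2) and 61.6 (10.4 to 2497), with intervals that cover counting error only. MST1R reached the filter's level of 1.81 CPM in the controls alone, so it entered the test through the group where it was high. HGFAC, which activates HGF and is made by the liver, fell in the ELK3-labelled libraries (-0.64 ± 0.23, adjusted p = 0.015). HGFAC was not called there with library totals (adjusted p = 0.0643), with DESeq2 (0.0798), without control replicate 2 (0.116) and without ELK3-labelled replicate 1 (0.128). MST1 had log2 fold changes of 0.34 ± 0.23 and -0.15 ± 0.23 against the controls (adjusted p = 0.17 and 0.59), the latter 0.01 with library totals.

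Liver transcripts were present in every library. The summed level of 12 hepatocyte genes was 12711 to 13137 CPM in the control pair, 12787 to 13753 in the vector-labelled and 10361 to 10873 in the ELK3-labelled libraries, with none at 0 and ALB at 3011 to 3986. In the ELK3-labelled libraries 12 of 12 fell against the controls (median -0.28) and against the vector-labelled libraries (median -0.33), and 0 were called between the vector-labelled libraries and the controls (median 0.05). Liver also makes EGFR, MET and ERBB3. The part of these transcripts in the values of those genes and of HGFAC was not tested. A list of 12 lymphocyte and myeloid genes summed to 204 to 209, 201 to 222 and 153 to 166 CPM, with PTPRC at 24.1 to 36.1 and CD79A at 0 in the controls. Of its 9 genes tested, 0 were called between the vector-labelled libraries and the controls, and 4 and 3 fell in the other contrasts. Of 12 luminal breast markers, 10 could be tested. Against the controls 5 rose and 4 fell in the vector-labelled and 5 rose and 1 fell in the ELK3-labelled libraries. Their sum was 349 to 360, 313 to 320 and 606 to 642 CPM, with AGR2 at 0 in the controls and TFF1 at 0 in the vector-labelled libraries. EPCAM, an epithelial adhesion gene, was at 11.8 to 13.8 CPM in the controls and 0.95 to 3.60 in the other libraries, GATA3 at 16.3 to 18.8 and 37.8 to 50.3, and CDH1 at 10.3 to 19.2 in all. In the ELK3-labelled libraries KRT18 and KRT19, shared with the MDA-MB-231 list, were among the 5 that rose, and with KRT8 (102 and 81.9 CPM in the controls, 246 and 209 there) they made up most of the sum. The progesterone receptor gene PGR had 3 counts in the controls, 88 in the vector-labelled and 6 in the ELK3-labelled libraries, and was called higher in the vector-labelled ones (count ratio 23.4, 95% counting interval 7.76 to 116, edgeR adjusted p = 1.01e-07). PGR reached the filter's level of 1.81 CPM in the vector-labelled libraries alone, so it entered the test through the group where it was high. The estrogen receptor gene ESR1 was at 16.1 to 24.8 CPM in every library and was not called against the controls.

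The genes listed as brakes on the receptors were split. Of 14 genes of inhibitors, ubiquitin ligases, phosphatases and the deubiquitinase USP8, 13 could be tested. Of these 8 fell and 4 rose in the vector-labelled libraries, where 35.3% and 37.0% of all genes tested did. In the ELK3-labelled libraries 6 fell and 1 rose, where 30.8% and 31.8% of all genes did. The list's medians were -0.68 and -0.08. ERRFI1, or MIG6, an inhibitor of EGFR that EGFR signalling induces, had 99.3 and 100.2 CPM in the control pair, 49.5 and 51.6 in the vector-labelled pair and 30.1 and 26.2 in the ELK3-labelled pair. It was 1.98-fold and 3.58-fold lower than in the controls (edgeR adjusted p = 5.98e-10 and 4.78e-16). The phosphatase-like gene UBASH3B fell 4.49-fold and 3.44-fold (adjusted p = 6.75e-13 and 1.6e-11) and CBL, the ubiquitin ligase of EGFR and MET, 2.23-fold and 1.59-fold (2.89e-12 and 2.59e-07). PTPN1, a phosphatase that acts on EGFR, had log2 fold changes of -0.60 ± 0.09 and -0.57 ± 0.08. LRIG3, of the LRIG family of membrane proteins, was the brake that rose in both groups, 3.26-fold and 2.39-fold (adjusted p = 6.72e-06 and 0.000629). LRIG1, the ubiquitin ligase gene CBLB and the deubiquitinase gene USP8 rose in the vector-labelled libraries, 1.46-fold, 1.64-fold and 1.31-fold (adjusted p = 0.00706, 0.0115 and 0.000308). LRIG1 and CBLB were not called without control replicate 2 (adjusted p = 0.103 and 0.0849) or without vector-labelled replicate 2 (0.096 and 0.0535), nor CBLB with DESeq2 (0.0697).

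Adaptors and effectors shared by EGFR and MET were mixed. Of 17, 10 fell and 3 rose in the vector-labelled libraries, where 35.3% and 37.0% of all genes tested did. In the ELK3-labelled libraries 7 fell and 4 rose, where 30.8% and 31.8% of all genes did. The list's medians were -0.39 and -0.26. Between the plasmid groups 9 were higher and 2 lower in the ELK3-labelled libraries, where 30.0% and 29.6% of all genes were. SHC1, an adaptor that links receptors to RAS, fell 2.61-fold and 2.37-fold (edgeR adjusted p = 2.12e-13 and 1.81e-12). PTPN11, the phosphatase SHP2, fell 2.01-fold and 1.36-fold (adjusted p = 1.07e-11 and 4.74e-05). CRK and NCK2, further adaptors, had log2 fold changes of -1.02 ± 0.11 and -1.28 ± 0.16 in the vector-labelled and -0.65 ± 0.10 and -0.46 ± 0.14 in the ELK3-labelled libraries. The last of these was not called with library totals (adjusted p = 0.0651), without control replicate 2 (0.122) and without ELK3-labelled replicate 2 (0.0672). The docking proteins GAB1 and GAB2 rose 2.63-fold and 2.18-fold in the vector-labelled libraries (adjusted p = 3.07e-05 and 1.24e-06) and 2.08-fold and 1.54-fold in the ELK3-labelled libraries (0.00119 and 0.0033). The latter was not called for GAB1 without control replicate 1 (adjusted p = 0.062) or for GAB2 without ELK3-labelled replicate 2 (0.0626). EPS8, an EGFR substrate, rose 1.73-fold in the vector-labelled libraries (adjusted p = 8.94e-07). It was called lower in the ELK3-labelled libraries (log2 fold change -0.35 ± 0.13, edgeR adjusted p = 0.0202). That call was lost with library totals (adjusted p = 0.207) and with DESeq2 (0.084). It was also lost without control replicate 1 (-0.31), without ELK3-labelled replicate 1 (-0.32) and without ELK3-labelled replicate 2 (-0.39). PIK3R1 was called lower in the vector-labelled libraries (-0.39 ± 0.12, edgeR adjusted p = 0.00388). That call was lost with library totals (adjusted p = 0.0563) and without control replicate 1 (-0.31). CRKL and PIK3R1 rose 1.34-fold and 1.23-fold in the ELK3-labelled libraries (adjusted p = 0.00335 and 0.0176), but CRKL was not called without control replicate 1 (0.0833), nor PIK3R1 with DESeq2 (0.102) or without control replicate 2 (0.209) or ELK3-labelled replicate 2 (0.0961).

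Of the 10 genes of a published score of MAPK pathway output, 9 fell and 1 rose in each plasmid group against the controls (median -2.95 and -2.76). PHLDA1, an early response gene, went from 375 and 359 CPM to 12.8 and 15.2 and to 13.2 and 10.3 (26.5-fold and 31.8-fold lower, edgeR adjusted p = 2.46e-26 and 2.7e-27). CCND1, the cyclin of entry into the cell cycle, fell 8.51-fold and 5.91-fold (adjusted p = 3.67e-24 and 9.49e-23). DUSP6, a phosphatase of ERK that ERK induces, fell 7.71-fold and 7.49-fold (adjusted p = 1.51e-20 and 7.24e-21), and the receptor gene EPHA2 7.76-fold and 6.10-fold (3.53e-19 and 1.59e-18). The gene that rose was EPHA4, a receptor of ephrins, at 1.88 and 1.94 CPM in the control pair, 25.6 and 26.4 in the vector-labelled pair and 18.8 and 16.9 in the ELK3-labelled pair. ETV5, an ETS-family gene, fell little in the vector-labelled libraries (98.1 and 96.8 to 73.2 and 68.8 CPM) and to 6.04 and 5.00 CPM in the ELK3-labelled libraries. EPHA4 and ETV5 were chosen after their values were seen.

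**Figure D4:**
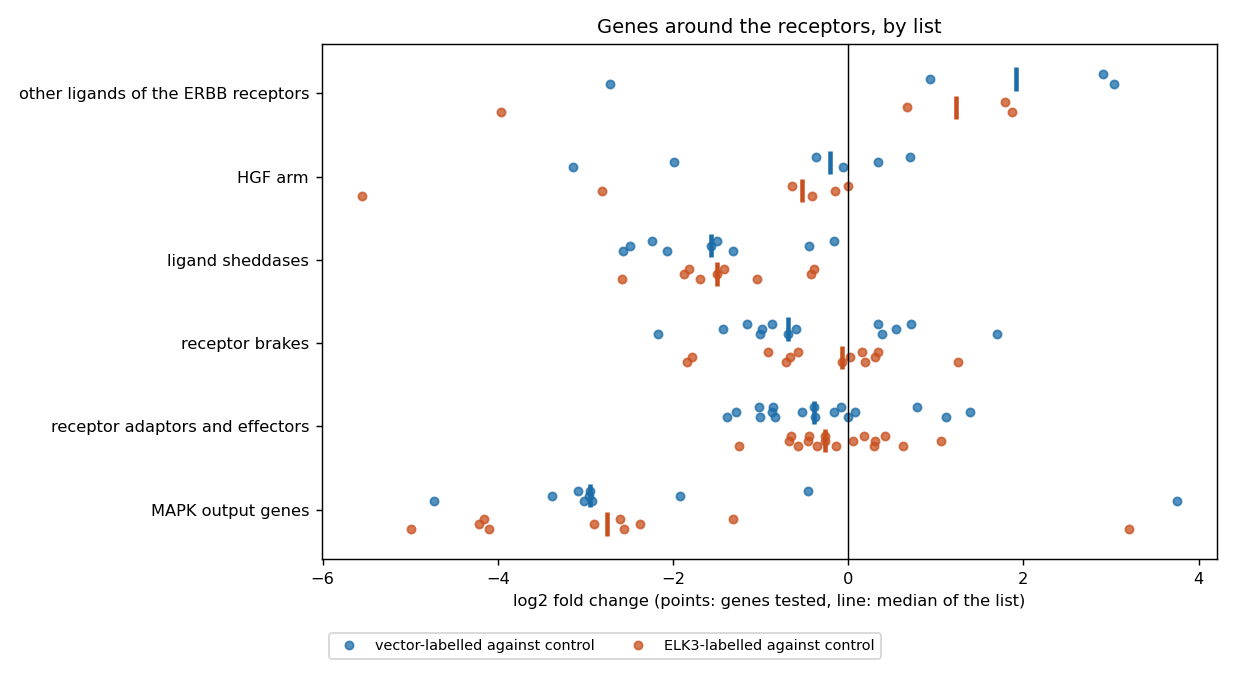
Log2 fold change against controls (horizontal axis) of the tested genes of 6 lists around the receptors, 1 point per gene and a line at the list's median, for both groups labelled as knockdown. The sheddases and most MAPK output genes lie left of 0, with EPHA4 far to the right, while adaptors and brakes spread around 0.

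The genes whose levels ran most like those of EGFR, MET, HBEGF and AREG were found by the Euclidean distance of centred log2 CPM over the 6 libraries, among 10434 genes with a mean of at least 10 CPM. For EGFR they were NAMPT, NFIC and PRICKLE3 at distances of 0.17, 0.21 and 0.24 log2 units. NAMPT, an enzyme of NAD synthesis, had mean levels of 246 CPM in the control pair, 35.6 in the vector-labelled and 43.9 in the ELK3-labelled libraries. For MET they were ANLN, NUDCD1 and HLA-DRA at 0.17, 0.19 and 0.23, with ANLN, a cytokinesis gene, at 297, 130 and 98.0 CPM. For HBEGF they were ANTXR2, OGFRL1 and ZBTB38 at 0.16, 0.19 and 0.22. The nearest to AREG, POU2F2, CREB3L1 and C15orf48, lay further off at 0.53, 0.61 and 0.62.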

How the data were processed

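RNA libraries were made with a Lexogen Quant-Seq kit, per the labels' protocols. The deposited files hold whole numbers by gene symbol, which were taken as unscaled counts. The submitters' processing notes name Bowtie2, edgeR and hg19. The counting tool, annotation and use of strand are not given in the sources used here. Counts of symbols on several lines (286 symbols, none a member) were added up.

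Tools were edgeR 4.0.16, DESeq2 1.42.0 and limma 3.58.1 in R 4.3.3, and Python 3.11.15, pandas 2.3.3, numpy 2.4.6, scipy 1.17.1 and matplotlib 3.10.9. Genes passing filterByExpr (15386) were scaled by TMM, and edgeR's robust quasi-likelihood fit took all 6 libraries at once, with group means as coefficients (3 residual degrees of freedom). SEs are Wald errors of that fit. P-values are two-sided and adjusted over all genes tested, with a threshold of 0.05. The members and lists were chosen with earlier results of these data known. The rule for names took the members, ELK3, up to 4 genes per pathway list by smallest p (vector-labelled against control), defining markers and the 3 nearest patterns. Other genes were named outside it, after their values were seen. They were neighbouring or overlapping genes, MET's ligand HGF and genes at 0 or too low to test. Also named were list members that moved against their list, were not called or made up much of a list's sum. Alternatives were a replicate block, other scalings, tests and filters, leaving out symbols on several lines, a fit to the 4 libraries of a contrast, and omission of each library.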

Additional observations from a re-analysis of the deposited data

How the results depend on the processing

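Of 30 fold changes (10 genes in 3 contrasts) under 15 alternatives, 425 values kept direction and side of the threshold, 13 changed sign, none of them called, and 1 call was lost (MET, above). The count of higher members went from 2 to 0 (vector-labelled against controls) and from 1 to 0 (ELK3-labelled against controls) with a filter of 10 CPM in 2 libraries, which leaves 7 members. With each library left out, members lower numbered 7 and 7 against the controls and 2 to 3 between the plasmid groups. Library totals shifted the median gene by 0.13 and 0.16 against the controls. Sign changes with library totals were ERBB3 (0.063, vector-labelled against controls), MST1 (0.0117, ELK3-labelled against controls) and, between the plasmid groups, EREG (0.0194) and ADAM8 (0.0032). With no filter they were EREG (0.0571), HBEGF (0.0036) and ADAM8 (0.0406), and with 10 CPM PTPN1 (-0.0391) and DUSP6 (-0.0246). With each library left out, ERBB3 ranged from -0.222 to 0.0803 in the first contrast. Between the plasmid groups EREG ranged from -1.54 to 0.54, TGFA from -0.49 to 0.37, HBEGF from -0.0994 to 0.0138, NRG2 from -0.443 to 0.0292, ADAM8 from -0.23 to 0.24, PTPN1 from -0.0429 to 0.115 and DUSP6 from -0.0848 to 0.242. The cause was not tested. With the replicate block, 11057, 9531 and 9051 genes were called in the 3 contrasts against 11117, 9633 and 9174 without it, and no member's call changed. Deviations of same-numbered libraries correlated at -0.056, 0.033 and -0.001, and the labels do not say that numbers pair cultures. Low counts limit BTC, EREG and ERBB4 most.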

Other observations

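The protein-coding neighbours of the receptor genes on chromosome 7 were looked at after the values were seen. Beside EGFR, SEC61G, a subunit of the protein translocon, had log2 fold changes of -0.34 ± 0.09 and -0.25 ± 0.09 in the vector-labelled and ELK3-labelled libraries against the controls (edgeR adjusted p = 0.00133 and 0.0152). The second was not called with library totals (adjusted p = 0.39), without control replicate 2 (0.128) or without ELK3-labelled replicate 2 (0.177). LANCL2, on its other side, was not called (0.21 ± 0.17 and 0.22 ± 0.16, adjusted p = 0.264 and 0.247), except with library totals in the ELK3-labelled libraries (0.37, adjusted p = 0.0429), while VOPP1, the next gene, fell by 1.45 and 0.90 on the log2 scale. Beside MET, the caveolin genes CAV1 and CAV2 fell by 3.35 and 1.94 on the log2 scale in the vector-labelled libraries and by 3.27 and 1.11 in the ELK3-labelled libraries. CAPZA2, a subunit of the actin capping protein on the other side of MET, fell by 1.10 and 0.78. The genes next to these did not all fall. TES, beyond CAV2, fell by 0.49 in the vector-labelled and rose by 0.32 in the ELK3-labelled libraries (edgeR adjusted p = 4.86e-05 and 0.0035). ST7, beyond CAPZA2, rose by 0.75 in the vector-labelled libraries (adjusted p = 9.58e-05) and was not called in the ELK3-labelled libraries (0.13, adjusted p = 0.5). CAV1 is also among the MDA-MB-231 markers.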
